A study of Mus musculus with 8 samples.

Results

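The protein parts of the cytoplasmic ribosome were followed in prospermatogonia, the germ cells of the fetal mouse testis, at embryonic stage E17.5. The genes were taken by name: every protein-coding gene whose symbol begins with Rpl or Rps and a digit, together with Rplp0, Rplp1, Rplp2 and Rpsa, and without the Rps6k kinases. This gave 92 of the 55401 genes in the count table. Of these, 77 encode the canonical proteins, 46 of the large and 31 of the small subunit. Another 8 are paralogs, 6 are retrocopies annotated as protein-coding, and 1, Rps19bp1, encodes a partner of a ribosomal protein and no subunit. The name rule misses some genes of ribosomal proteins with other names, of which Fau and Rack1 are described separately.

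RNA sequencing counts came from 4 libraries labelled KO (Tet1-/-) and 4 labelled WT (Tet1+/+), all marked as batch 1, made from total RNA depleted of ribosomal RNA. By its title the series concerns what TET1, an enzyme that oxidises methylated cytosine, does without its catalysis when methylation is laid down in male germ cells. How the cells were isolated, the kind of Tet1 allele and whether each library came from its own animal are not stated in the labels, so p-values measure the spread between these libraries, which may be partly technical. Sampling RNA in bulk, the libraries cannot tell fewer cells of a type from less RNA per cell.

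Total counts ran from 13820764 to 20115250 per library. Levels are given as CPM, the count relative to a library size corrected with TMM factors (trimmed mean of M values), and a difference is the log2 of KO over WT. The Tet1 count went against the labels: it was 30.3, 30.2, 32.8 and 34.2 CPM in WT 1 to 4 and 129, 145, 75.8 and 147 CPM in KO 1 to 4. This is a log2 difference of 1.97 (SE 0.178, edgeR adjusted p = 3.03e-06), and which exons those reads came from is not visible in gene counts. All directions therefore refer to the libraries as labelled. The germ cell genes Ddx4 (366 ± 50.2 CPM in WT and 455 ± 66.7 in KO, SD, n = 4) and Dazl (264 ± 45.7 and 431 ± 24.0) were abundant in both groups. Of the 10 germ cell markers 6 were higher in KO and 3 lower, from Dppa3 (4.04) to Tdrd9 (-1.41), the latter with Dnmt3l (-1.33) and Mael (-1.13). Of 6 Leydig cell markers, all were far higher in KO 4 than in any other library: their sum was 1803 CPM there, with Cyp17a1 alone at 862, and 14.9 in the lowest KO library, against 16.5 to 32.5 in WT. The 8 Sertoli markers summed to 52.9 to 65.3 CPM in WT and 128 to 145 in KO, most of it Dmrt1, which germ cells also express (38.2 ± 3.21 and 105 ± 13.4 CPM, SD, n = 4). Amh (1.20), Wt1 (1.13) and Aard (1.32) were higher as well, at mean levels of 1.26 to 6.07 CPM, and Dhh was lower (-0.83). Sums for the other marker lists overlapped between the groups: 111 to 158 CPM in WT and 119 to 157 in KO for stromal cells, 57.1 to 68.8 and 55.9 to 69.8 for endothelium, 6.68 to 11.5 and 5.67 to 9.70 for macrophages, and 17.9 to 22.8 and 12.7 to 20.9 for red cells. Single markers moved within these sums. Of the endothelial markers tested Cdh5 (-0.64), Kdr (-1.30) and Tek (-0.48) were lower and Pecam1 (1.00) higher, and of the others Myh11 (-1.56), Adgre1 (-2.02), Csf1r (-0.83) and Alas2 (-1.005) were lower and Col1a1 (0.65), Tcf21 (1.27) and Hba-a1 (1.34) higher. The part of these cells in the results was not tested, other than by leaving out KO 4.

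A ribosome joins a small subunit, which decodes the messenger RNA, to a large subunit, which forms the peptide bond. Each subunit carries its proteins in fixed amounts, and surplus ribosomal proteins are generally degraded. The genes are expressed in almost every cell, at high levels, and are often taken as a set that moves together. Their messenger RNAs begin with a cytosine and a run of pyrimidines, the 5′ terminal oligopyrimidine tract (TOP), through which mTOR and LARP1 set how strongly they are translated. Several members have a paralog with a narrower pattern of expression, among them the testis-expressed Rpl10l and Rpl39l and the muscle-expressed Rpl3l.

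The start sites of several members are shown to set genes that passed with TMM scaling beside some that did not, since genes of both kinds carry the same pyrimidine stretch. Under the 6 scalings described below, Rps23 was higher in 6, Rpl7a and Rpl28 were higher in 3, and Rps15a was lower in 5. RefSeq start-site sequence (GRCm38.p6) was held for 66 of the 92 genes, and TCTTTC was searched on the gene's own strand within 50 bases to either side of the annotated start. It was present in 16 of 57 canonical genes (28.1%) and in 4.53% of all 27025 genes, while its reverse complement GAAAGA, searched on the same strand, was in 3.51% and 4.25%. The motif began at position 45 from the annotated start in Rps23, at 2 in Rpl28 and at -19 to -1 in the others shown. Capitals mark TCTTTC in each window of 30 bases, written 5′ to 3′ on the gene's strand.
Rps23 (chr13:90923142-90923171, plus strand, log2 difference 1.55, higher): tgggtccttcctgcacctcctctcTCTTTC
Rpl7a (chr2:26910793-26910822, plus strand, 0.44, higher): ttccctcttcttTCTTTCtccagcagccga
Rpl28 (chr7:4792954-4792983, plus strand, 0.37, higher): ctctcgtgtctcTCTTTCcgtctccggccg
Rpl4 (chr9:64173357-64173386, plus strand, -0.08, not passing): acaagtgacaagTCTTTCcttttcctgtgg
Rpl5 (chr5:107900497-107900526, plus strand, -0.09, not passing): gcctacagccacTCTTTCtcacgtcgcttg
Rpl38 (chr11:114668567-114668596, plus strand, -0.09, not passing): cggaagcctcgtTCTTTCcccgttctcttc
Rps15a (chr7:118116142-118116171, minus strand, -0.38, lower): cccggcccactcTCTTTCtgccatcttccc

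The stretch was present in 5 of 19 canonical genes that were higher (26.3%) and in 10 of 37 that did not pass (27.0%). GGAAGT, the core bound by ETS factors, searched on both strands of the same stretch and independently of the pyrimidine motif, was in 22 of 57 canonical genes (38.6%) and in 12.3% of all genes. It stood in 6 of 19 higher genes (31.6%) and 16 of 37 that did not pass (43.2%). A match is a description of the letters and no evidence of use.

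With TMM scaling, most ribosomal protein genes lay near their WT level in the libraries labelled KO, and a minority was higher. Of the 92 genes, 88 had enough counts to be tested, and the 4 left out were the retrocopies Rpl10-ps3, Rpl36-ps4, Rpl36a-ps1 and Rpl9-ps1, none above 0.755 CPM in any library. With edgeR and a Benjamini-Hochberg adjusted p under 0.05, 30 members were higher (34.1%), 4 were lower (4.55%) and 54 did not pass. Over all 24005 genes tested, 25.3% were higher and 28.2% lower. Of 16568 protein-coding genes 31.0% were higher and 29.8% lower. Among 3169 abundant genes, whose mean log2 CPM was at least 6 as it was for most members, 45.2% were higher and 15.1% lower, and of the 71 members there 24 were higher and 1 lower. The share of members that were higher lay above that of all genes and below that of abundant genes.

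The median difference of the members was 0.13 (interquartile range -0.03 to 0.43) against -0.05 for all genes, and 47 of 88 members (53.4%) lay within 0.25 of no change, against 22.1% of all genes. Among abundant genes the order of the medians turned: 0.13 for the 71 members and 0.24 for all, of which 34.6% lay within 0.25 of no change and 56.3% of the members did. Beyond that core the distribution had a long upper side. A log2 difference of 1 or more was seen in 12 members that passed, where 8.78% of all genes did so. With KO higher, the groups did not overlap for 21 of 88 members, near the 23.2% of all genes. With KO lower, they did not overlap for 3 (25.1% of all genes). Of the 3169 abundant genes, 1374 had KO above WT without overlap and 428 had KO below. Of the 71 members there, 17 were above and 0 below.

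**Figure D1:**
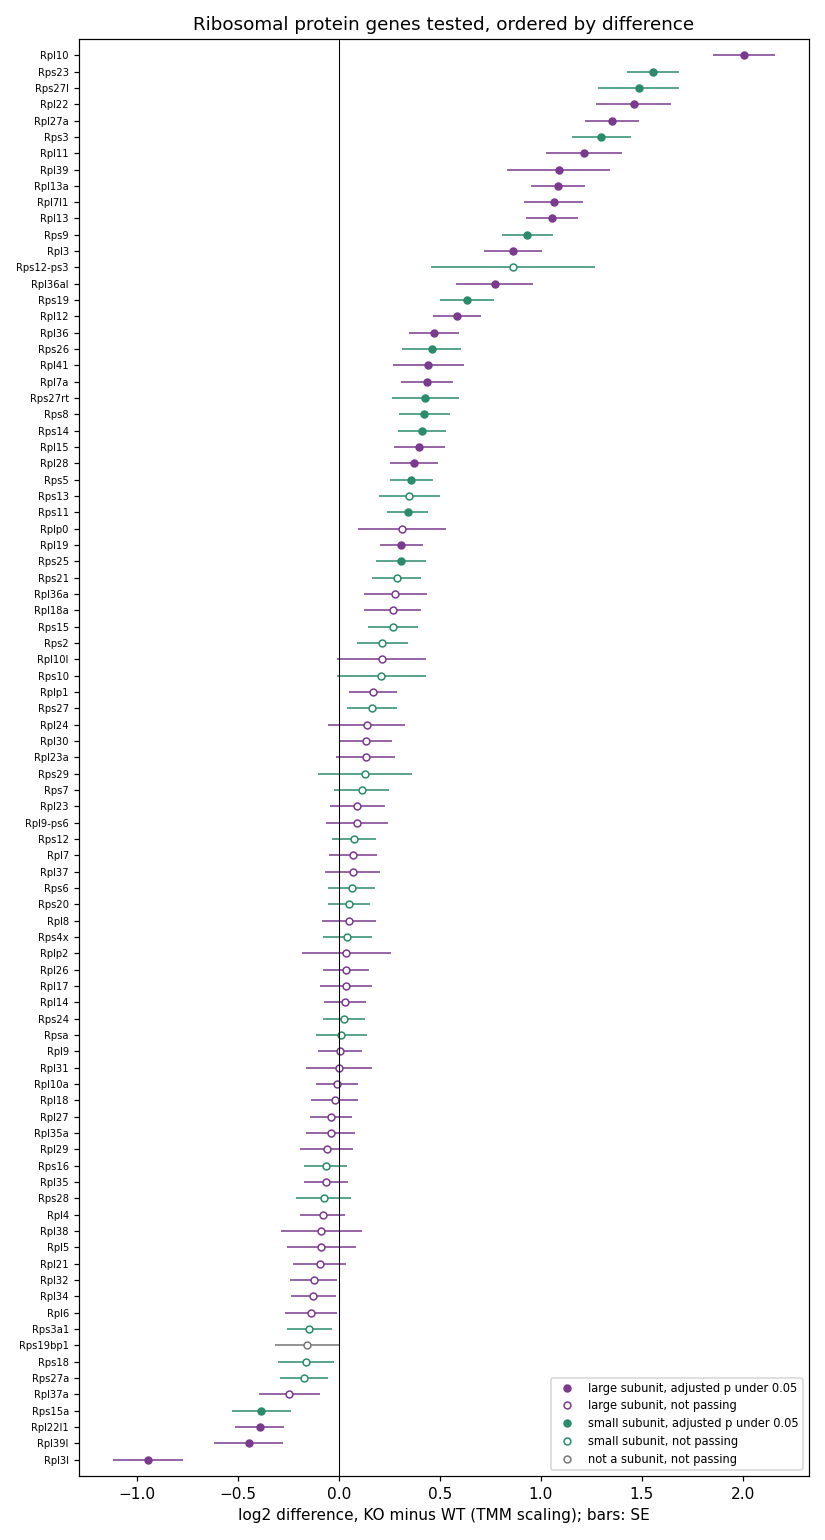
Log2 difference (KO minus WT, TMM scaling) of 87 ribosomal protein genes tested, with bars of 1 SE, coloured by subunit; filled points passed at an adjusted p under 0.05. Most points lie close to 0, 11 exceed 1 on the upper side, and Rpl3l at -0.95 is the lowest.

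How many members moved depended on how the libraries were scaled, so the counts were taken under 6 scalings. TMM, TMM computed without the ribosomal protein genes and their pseudogenes, and median-ratio (RLE) scaling gave 30, 30 and 31 members higher and 4, 4 and 2 lower. Upper-quartile scaling gave 17 higher and 20 lower, library totals alone 18 and 15, and cyclic loess 18 and 21. The median of the members was 0.13, 0.14 and 0.16 with the first 3 and turned to -0.11, -0.05 and -0.11 with the others. Upper-quartile scaling and library totals moved the median of all genes as well, from -0.05 to -0.29 and -0.23, and with cyclic loess it was 0.02. Relative to all genes the members' median was 0.19 higher with TMM, 0.18 higher with upper-quartile scaling and with library totals, and 0.12 lower with cyclic loess. Of all genes, 26.2% were higher and 27.3% lower with RLE, 16.8% and 37.0% with upper-quartile scaling, 18.7% and 34.2% with library totals, 25.3% and 24.5% with cyclic loess, and 25.5% and 28.0% with TMM without the members.

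**Figure D2:**
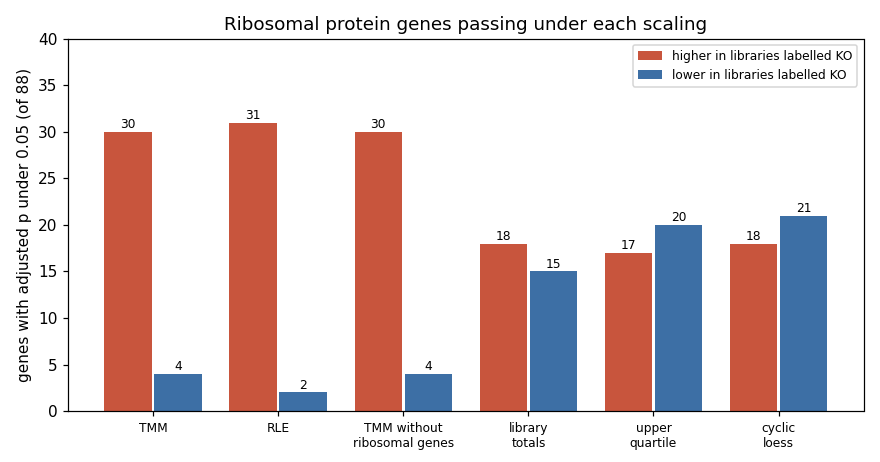
Number of the 88 tested members with an adjusted p under 0.05 that were higher or lower in the libraries labelled KO, under each of 6 scalings. The first 3 scalings give 30 or 31 higher and 2 to 4 lower, and the last 3 give 17 or 18 higher and 15 to 21 lower.

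A set of 17 members was higher under all 6 scalings, where 16.6% of all genes were. Among them were Rpl3, Rpl10, Rpl11, Rpl12, Rpl13, Rpl13a, Rpl22, Rpl27a and Rpl39 with the paralogs Rpl7l1 and Rpl36al of the large subunit, and Rps3, Rps9, Rps19 and Rps23 with the paralog Rps27l of the small subunit. Their differences ran from 0.34 to 2.03 over the scalings, and 16 of the 17 had groups that did not overlap, Rpl39 being the exception. Of all 24005 genes tested, 6083 were higher with TMM scaling and 5575 had KO above WT without overlap. Selection by calls favours groups that are apart, and the share among all genes higher under all 6 scalings was not taken. Each of the 17 kept its call in all 23 alternatives. These include the other scalings, by which the set was chosen, and a looser adjusted p, which can lose no call. For those the outcome was fixed by the selection, and only the remaining alternatives could have lost a call. Rpl3l and Rpl22l1 were lower under all 6 scalings, where 19.8% of all genes were. Another 15 members were higher and 21 lower under some scalings, none was called in both directions, and 33 were called under none. The sign itself changed between scalings for 29 members.

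Among the large subunit genes, Rpl10 showed the greatest difference of all members. It is an X-linked gene (chromosome X, 74270812 to 74273135, plus strand, GRCm38) whose protein joins the large subunit late in its maturation, near the site of peptide bond formation. It was 20.2, 26.4, 24.9 and 26.3 CPM in WT 1 to 4 and 111, 116, 71.3 and 95.4 CPM in KO 1 to 4. Every KO library exceeded every WT library, with KO 3 the lowest of them (log2 difference 2.01, SE 0.155, edgeR adjusted p = 1.01e-06). Of the 50-base stretches in its transcripts, 92.1% also occur in other annotated genes, so its count may lack or hold reads of near-identical copies.

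Rpl22 (chromosome 4, 152325742 to 152334071, plus strand), an RNA-binding protein of the large subunit, was 47.8, 37.6, 45.4 and 40.6 CPM in WT 1 to 4 and 141, 141, 70.9 and 118 CPM in KO 1 to 4. The groups were apart and KO 3 was again the lowest of its group (log2 difference 1.46, SE 0.185, edgeR adjusted p = 3.54e-05). Rpl27a (chromosome 7, 109519147 to 109522367, plus strand) went from 66.5 to 73.1 CPM across WT to 133 to 210 across KO, a difference of 1.35 (SE 0.135, edgeR adjusted p = 6.32e-06). Rpl3, an early-assembling protein at the peptidyl transferase centre, was 396, 334, 376 and 480 CPM in WT 1 to 4 and 688, 917, 613 and 669 in KO 1 to 4, a difference of 0.86. Rpl13 rose by 1.05, Rpl13a by 1.09, and Rpl12, at the base of the stalk, by 0.59. Rpl13a had only 9.69 to 12.04 CPM in WT and 20.96 to 25.4 in KO, and it shares exon sequence on its own strand with an annotated gene that was listed at 0 in all 8 libraries.

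Rpl11 and Rpl5 form a particle with the 5S ribosomal RNA and, outside ribosomes, bind MDM2, the ligase that limits p53. Rpl11 was 43.5, 41.4, 43.8 and 37.5 CPM in WT 1 to 4 and 117, 117, 55.5 and 96.7 CPM in KO 1 to 4. The groups did not overlap, although KO 3 stood well below the other KO libraries (log2 difference 1.22, SE 0.190, edgeR adjusted p = 0.000168). Rpl5 was 352, 279, 381 and 325 CPM in WT 1 to 4 and 362, 371, 200 and 325 CPM in KO 1 to 4, with KO 3 below every other library and the rest intermixed. Its difference was -0.09 (SE 0.170, edgeR adjusted p = 0.690), so that Rpl11 passed and Rpl5 did not. The difference between the 2 genes was not tested.

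The stalk of the large subunit, built of Rplp0, Rplp1 and Rplp2, recruits the GTPases that drive elongation, and none of its genes passed. Rplp0 was spread widely in WT, from 295 through 335 and 425 to 674 CPM, and lay between 449 and 674 CPM in KO (log2 difference 0.31, SE 0.219, edgeR adjusted p = 0.245). Without WT 4, the highest of its group, it was 0.62 (edgeR adjusted p = 0.00676). Rplp1 differed by 0.17 (SE 0.120) and Rplp2 by 0.04 (SE 0.222). Rplp2 was 179 CPM in KO 3 and 319 to 452 CPM in the other KO libraries, against 277 to 383 CPM in WT.

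The most abundant members per kilobase of annotated exon did not pass with TMM scaling. The length is that of all annotated exons joined, so these levels are approximate and low for genes with long alternative exons. In WT, Rplp1 had 1386 CPM per kilobase, Rpl4 1066 and Rpl8 887, and in the small subunit Rps3a1 had 468, Rpsa 414 and Rps15 376. Rpl4, which lines the exit tunnel, was 2081, 2297, 2049 and 2133 CPM in WT 1 to 4 and 1906, 2299, 2110 and 1787 CPM in KO 1 to 4, a difference of -0.08 (SE 0.111) with the groups intermixed. It passed as lower with upper-quartile scaling (-0.32, edgeR adjusted p = 0.0274) and with library totals (-0.26, edgeR adjusted p = 0.0439). Rpl8, next to the peptidyl transferase centre, differed by 0.05 (SE 0.135) and did not pass under any scaling. The other end of the range of canonical genes was held by Rps10 at 2.96, Rpl24 at 4.90 and Rpl13a at 5.37 CPM per kilobase in WT. Each of these 3 shares exons on its own strand with another annotated gene that was listed at 0 in all libraries (RPS10-NUDT3, Gm28037 and Gm45713), and the part of that overlap in the low counts was not tested.

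Among the small subunit genes, Rps23 and Rps3 were both higher in every KO library than in any WT library. Rps23 (chromosome 13, 90922958 to 90924950, plus strand), a protein of the decoding centre, was 126, 136, 129 and 145 CPM in WT 1 to 4 and 421, 481, 316 and 356 CPM in KO 1 to 4. The WT libraries lay close together and far below the KO libraries (1.55, SE 0.129, edgeR adjusted p = 1.61e-06).

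Rps3 (chromosome 7, 99477896 to 99483738, minus strand), at the entry of the messenger RNA channel, was 208, 183, 207 and 258 CPM in WT 1 to 4 and 535, 658, 413 and 501 CPM in KO 1 to 4. It shared only 2.96% of its 50-base stretches with other genes, and KO 3 was the lowest of the KO libraries (1.30, SE 0.146, edgeR adjusted p = 1.5e-05). Its neighbour at that channel, Rps9, went from 177 to 239 CPM across WT to 340 to 459 across KO (0.93, SE 0.127, edgeR adjusted p = 6.2e-05). Rps19, the gene most often mutated in Diamond-Blackfan anaemia, rose by 0.64, from 125 to 136 CPM across WT to 148 to 240 CPM across KO.

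Other small subunit genes did not pass or were lower. Rpsa, which also occurs at the cell surface as a laminin receptor, differed by 0.01 (SE 0.126), with 1196 to 1476 CPM in WT and 1148 to 1607 in KO. Rps4x, X-linked, differed by 0.04 (SE 0.123), and Rps15 by 0.27 (SE 0.124, edgeR adjusted p = 0.0850). Rps15a was the only canonical member that passed as lower, from 318 to 387 CPM in WT to 192 to 331 in KO (-0.38, SE 0.148, edgeR adjusted p = 0.0421). Its groups overlapped, and the call was lost in 9 of the alternatives, among them DESeq2 (adjusted p = 0.127) and leaving out KO 3 (edgeR adjusted p = 0.134). Rpl37a, of the large subunit, had the lowest difference that did not pass (-0.24, SE 0.151) and was lower with the 3 scalings that gave more falls (-0.43 to -0.52).

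**Figure D3:**
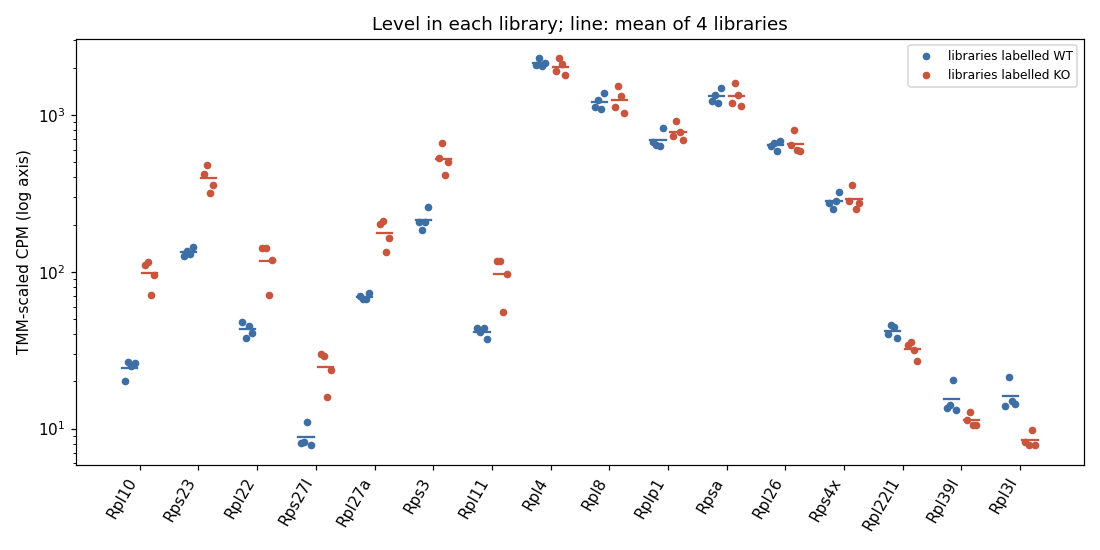
Level of 16 members in each library in TMM-scaled CPM on a log axis, blue for the 4 libraries labelled WT and red for the 4 labelled KO, with a line at the mean. The groups are apart for the 7 genes on the left and for the 3 paralogs on the right, and intermixed for the 6 abundant or X-linked genes between them.

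The subunits were set side by side. Of 53 large subunit genes tested, 17 were higher and 3 lower, and their median was 0.09. Of 34 small subunit genes, 13 were higher and 1 lower, and their median was 0.24. The shares that were higher, 32.1% of the large and 38.2% of the small subunit, lay between those of all genes and abundant genes. Of all genes, 25.3% were higher and 28.2% lower, and of abundant genes 45.2% and 15.1%. All 3 lower genes of the large subunit were paralogs. The summed level of the large subunit was 15148 ± 782 CPM in WT and 16688 ± 2156 in KO (SD, n = 4), and that of the small subunit 8783 ± 478 and 10474 ± 1505. The ratio of these sums is unchanged by any scaling with a single factor per library, and was not taken with cyclic loess. It was 1.71, 1.75, 1.73 and 1.72 in WT 1 to 4 and 1.59, 1.57, 1.63 and 1.60 in KO 1 to 4, so that no KO library reached the lowest WT library. No share over ratios of other gene sets was taken. Of all single genes, 23.2% had KO above WT without overlap and 25.1% had KO below.

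Members were left out of the sums by choices made after the values were seen. Without all 12 members that passed with a log2 difference of 1 or more, from both subunits, the ratio was 1.755 to 1.791 in WT and 1.713 to 1.754 in KO, where KO 3 all but met WT 1. The 4 small subunit genes among them rose by 877 CPM in sum, of 1691 CPM for all 34 small subunit genes. With only those 4 left out the ratio was 1.803 to 1.834 in WT and 1.81 to 1.85 in KO, with the groups intermixed, and leaving out risen genes of 1 subunit moves the ratio that way by construction. Without Rpl4, the most abundant member, the ratio was 1.47 to 1.49 in WT and 1.39 to 1.41 in KO. Without the 17 members that were higher under all scalings it was 1.748 to 1.791 in WT and 1.697 to 1.746 in KO, still without overlap but nearly touching. The members together took 2.53 ± 0.147% of counts in WT and 2.54 ± 0.231% in KO (SD, n = 4).

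**Figure D4:**
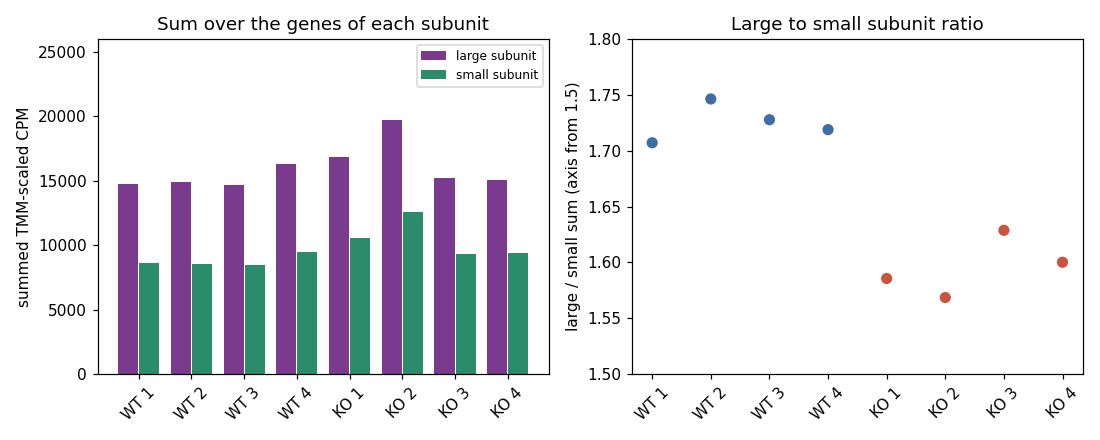
Left, summed TMM-scaled CPM of the large and small subunit genes in each library; right, the ratio of these sums, on an axis that starts at 1.5. The 4 libraries labelled WT lie between 1.71 and 1.75 and the 4 labelled KO between 1.57 and 1.63. No share over ratios of other gene sets was taken.

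Within a library the members tended to deviate from their group mean in the same direction. KO 2 was above the mean of the KO libraries for 75 of the 77 canonical genes and KO 1 for 60, whereas KO 3 was above it for 10 and KO 4 for 8. In WT the counts were 46, 24, 34 and 53 for WT 1 to 4. The same counts were not taken over all genes, so whether this was particular to the members was not tested. The summed level was 32252 CPM in KO 2 and 24479 to 27403 CPM in the other KO libraries, against 23115 to 25803 CPM in WT. Without KO 2, 27 members were higher and 3 lower, and without KO 3, 32 and 2. Without KO 4, the library with Leydig markers, 32 were higher and 1 lower. Of all genes tested without KO 2, 5818 of 25408 were higher and 6024 lower. The counts were 6251 of 25239 and 7014 without KO 3, and 5692 of 25288 and 6258 without KO 4.

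The calls of paralogs differed from those of their canonical partners in both directions, and the difference within a pair was not tested. Of 8 paralogs, 4 were higher, 3 lower and 1 did not pass. Of all genes, 25.3% were higher and 28.2% lower. Rps27l, a p53-inducible relative of Rps27, was 8.04, 8.25, 11.1 and 7.83 CPM in WT 1 to 4 and 30.1, 28.99, 16.02 and 23.5 CPM in KO 1 to 4, with the groups apart (1.49, SE 0.202, edgeR adjusted p = 5.96e-05). Rps27 itself differed by 0.16 (SE 0.122), and 98.7% of its 50-base stretches occur in other genes. Rpl7l1, a relative of Rpl7 that acts in assembly of the large subunit, rose by 1.06 from 46.4 ± 7.90 to 96.9 ± 16.2 CPM (SD, n = 4), while Rpl7 differed by 0.07 (SE 0.119). Rpl36al, a retrogene of the X-linked Rpl36a, was at 5.35 to 6.73 CPM in WT and 7.49 to 12.8 in KO (0.77, SE 0.192, edgeR adjusted p = 0.00444). Rps27rt, which shares 91.1% of its stretches with other genes, passed with TMM (0.43, edgeR adjusted p = 0.0434) but not with upper-quartile scaling, library totals or cyclic loess.

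Each of the 3 lower paralogs had a partner that was higher. Rpl3l (chromosome 17, 24727820 to 24736143, plus strand) was 14.03, 21.4, 15.04 and 14.4 CPM in WT 1 to 4 and 8.22, 7.83, 9.74 and 7.90 CPM in KO 1 to 4. No KO library reached the lowest WT library (-0.95, SE 0.175, edgeR adjusted p = 0.000589). Rpl22l1 (chromosome 3, 28805436 to 28807424, plus strand), whose messenger RNA is known to be restrained by Rpl22, went from 37.99 to 45.9 CPM across WT to 26.8 to 35.7 across KO (-0.39, SE 0.122, edgeR adjusted p = 0.0156). It lost the call in 4 alternatives, without KO 4 (edgeR adjusted p = 0.0787) and without WT 3 (0.0613) among them. Rpl39l was 13.2 to 20.5 CPM in WT and 10.5 to 12.8 in KO (-0.45, SE 0.171, edgeR adjusted p = 0.0413), while Rpl39, a small protein of the exit tunnel, rose by 1.09 from 8.83 to 13.5 CPM across WT to 11.7 to 33.6 across KO. The call of Rpl39l was lost without WT 3 (-0.25, edgeR adjusted p = 0.221), its highest library, and in 8 other alternatives. Rpl10l, the testis-expressed retrogene of Rpl10, differed by 0.21 (SE 0.222, edgeR adjusted p = 0.441), with 36.9 to 94.1 CPM in WT and 62.8 to 86.8 in KO.

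Within a library, the ratio of partners is unchanged by scaling with a single factor per library, and was not taken with cyclic loess. Rpl10 to Rpl10l went from 0.381, 0.715, 0.346 and 0.279 in WT 1 to 4 to 1.63, 1.46, 0.821 and 1.52 in KO 1 to 4. Rpl22 to Rpl22l1 was 0.818 to 1.19 in WT and 2.24 to 4.41 in KO, and Rpl3 to Rpl3l 15.6 to 33.4 and 63.0 to 117. For these 3 pairs no library of either group reached the range of the other. The same held for Rpl39 to Rpl39l (0.549 to 0.989 and 1.10 to 2.95), for Rpl7l1 to Rpl7 (0.0380 to 0.0621 and 0.0914 to 0.116) and for Rps27l to Rps27 (0.0628 to 0.0922 and 0.141 to 0.213). The ratios of Rps27rt to Rps27 and of Rpl36al to Rpl36a overlapped between the groups. Each pair holds a gene that passed in the same libraries, so the ratios are not independent of those calls. No share over other gene pairs was taken. Of all single genes, 23.2% had KO above WT without overlap and 25.1% had KO below.

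**Figure D5:**
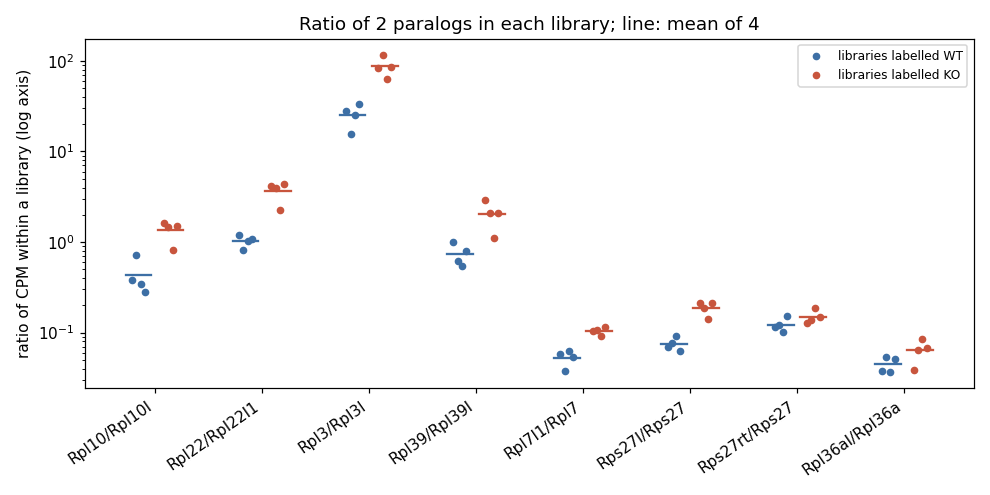
Ratio of CPM of 2 related genes within each library, on a log axis, blue for the libraries labelled WT and red for those labelled KO, with a line at the mean. The groups are apart for 6 of the 8 pairs and overlap for Rps27rt/Rps27 and Rpl36al/Rpl36a. No share over other gene pairs was taken.

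Other shared properties of the members were compared. Each count stands beside the 25.3% of all genes and 45.2% of abundant genes that were higher. In 30 canonical genes, small nucleolar RNAs, which guide modification of ribosomal RNA, are annotated within the gene on its strand. Of these 30, 11 were higher with a median of 0.13, and of 47 others 15 were higher with a median of 0.13. The 44 canonical genes with at least 50% of their 50-base stretches in other genes had 13 higher and a median of 0.12, and the 33 with less had 13 higher and a median of 0.13. Of the 4 X-linked canonical genes Rpl10 and Rpl39 were higher, and Rpl36a (0.28, SE 0.155) and Rps4x did not pass. Pseudogenes named after members numbered 292. Of the 86 tested, 15 were higher and 5 lower (median 0.39), and adding their counts to the parent genes gave 32 members higher and 4 lower. The 1 pseudogene named after Rpl22, picked out here after its values were seen, was 7.12, 5.63, 4.87 and 9.71 CPM in WT 1 to 4. In KO 1 to 4 it was 34.1, 43.8, 41.3 and 37.3 CPM, with the groups apart. Of the 50-base stretches of Rpl22, 24.5% occur in other genes, so the counts of Rpl22 and this pseudogene may share reads.

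Of the ribosomal proteins with other names, Rack1, a signalling scaffold on the small subunit, rose by 1.08 from 303 ± 34.7 to 639 ± 98.8 CPM (SD, n = 4). Fau, whose product is fused to a ubiquitin-like protein, differed by -0.22 (SE 0.102, edgeR adjusted p = 0.0801) and was lower with upper-quartile scaling, library totals and cyclic loess. Rps27a, which encodes ubiquitin fused to a small subunit protein, differed by -0.17 (SE 0.117) and was likewise lower with those 3 scalings.

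The machinery that builds ribosomes was counted in the same way, and no test was made of these genes against the ribosomal proteins. Each count stands beside the 25.3% of all genes and 45.2% of abundant genes that were higher. RNA polymerase I and its factors, which transcribe ribosomal RNA, had 9 of 15 genes higher and 0 lower (median 0.60), led by Cd3eap (1.55) and Rrn3 (1.17). The particles that modify ribosomal RNA had 12 of 16 higher and 1, Emg1 (-0.28), lower (median 0.87). Nop58 went from 36.9 ± 6.56 to 141 ± 22.4 CPM (SD, n = 4), Dkc1 rose by 1.87, Snu13 by 1.51 and Npm1 by 1.20. Assembly of the large subunit had 33 of 47 higher and 2 lower (Nsa2 and Efl1), a median of 0.51, and Grwd1 rose by 1.30 and Gnl3 by 1.07. Assembly of the small subunit had 21 of 38 higher and 3 lower (Rrp12, Dcaf13 and Bms1) with a median of 0.35, and Wdr46 rose by 1.30 and Utp18 by 0.78. With upper-quartile scaling, where 16.8% of all genes were higher and 37.0% lower, these counts were 8 higher and 2 lower, 11 and 2, 22 and 3, and 12 and 6. With cyclic loess (25.3% and 24.5% of all genes) they were 8 and 2, 11 and 3, 23 and 4, and 14 and 7.

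The same shares of all genes and of abundant genes, 25.3% and 45.2% higher, stand beside the counts of translation genes, and several counts lay near the second. Proteins that escort single ribosomal proteins had 5 of 10 genes higher and 0 lower, among them Tsr2 (0.89) and Heatr3 (0.70). Translation initiation factors had 21 of 37 higher and 2 lower (Eif3h and Eif3b), a median of 0.41, and the helicase gene Eif4a1 rose by 1.59. Elongation and termination factors had 8 of 17 higher and 0 lower (median 0.22, or -0.02 with upper-quartile scaling), and the release factor gene Etf1 rose by 1.30. Of 27 regulators of TOP messenger RNAs and of ribosome production 19 were higher and 2 lower, namely Larp1b (-1.09) and Mtor (-0.29). Mycn, whose protein drives transcription of genes for ribosome production, went from 5.90 ± 0.529 to 65.9 ± 10.7 CPM (SD, n = 4), a difference of 3.48 (SE 0.151, edgeR adjusted p = 9.21e-09), and Cnbp, which binds TOP messenger RNAs, rose by 1.63. Other messenger RNAs known to carry a TOP had 11 of 22 higher and 1, Eif3h (-0.66), lower. Their median of 0.21 was -0.03 with upper-quartile scaling and -0.01 with cyclic loess, where that of the ribosomal protein genes changed sign too. With library totals it stayed at 0.03, while that of the ribosomal protein genes was -0.05. Some genes stand in more than 1 of these lists.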

How the data were processed

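RNA was sequenced from 8 libraries of mouse prospermatogonia, 4 labelled KO and 4 labelled WT. Per the labels' protocols, RNA was extracted with TRIzol from frozen pellets, treated with DNase I, depleted of ribosomal RNA and made into libraries with unique molecular identifiers. The authors deposited 1 table of raw gene counts, whole numbers without normalization. Trim Galore, STAR, featureCounts 1.5.0, edgeR, DESeq2 and mm10 are named, with no role or order, per the submitters' processing notes. Collapsing by molecular identifier, strand setting and annotation release are not stated in the labels, so genes with near-identical copies and overlapping genes may share or lose reads.

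Of 55401 identifiers 55141 matched GENCODE M21 (GRCm38) without the version, and 0 sample columns were left unused. Counts were filtered with filterByExpr, scaled by TMM and tested with edgeR 4.0.16 (quasi-likelihood, group as the only term, R 4.3.3), with Benjamini-Hochberg adjustment over 24005 genes and a threshold of 0.05. The biological coefficient of variation was 0.217, and standard errors of members ran from 0.102 to 0.404. A count of 0 allows up to 3 counts, 0.149 to 0.217 CPM, which covers counting error only. The steps were tested on simulated counts with few changed genes, balanced up and down. Such counts cannot probe the choice of scaling.

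The members and gene lists were chosen with earlier results of these data known. Genes named are the 12 members with the lowest p in each direction, the 5 highest and 5 lowest differences, the 3 most abundant per kilobase in each subunit, paralogs with their partners, stalk genes, Rpl5, Rpl11, Rpsa, ribosomal proteins with other names, Tet1, and up to 4 per list (2 per marker list). Other members are named in counts or after their values were seen. Alternatives were DESeq2 1.42.0, limma 3.58.1 voom with library weights, robust dispersion, 5 other scalings, 2 other filters, coding genes only, pseudogenes added, a replicate block, an adjusted p under 0.1, thinning, and leaving out each library. Leaving members out of the subunit ratio was chosen after seeing the data. Some single genes are not reported here, though they stay in the fits, counts and sums.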

Additional observations from a re-analysis of the deposited data

Results flagged for a closer look

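A lone library, set apart from the other 3 of its group by more than 0.829 of the group's range, was found in 6 of 80 groups of 4 examined, where chance gives about 1 in 20. Rpl3l was 21.4 CPM in WT 2, above the other WT libraries. Rpl39l was 20.5 CPM in WT 3, and its call was lost without that library. Rps27l was 11.1 CPM in WT 3, above its group and below every KO library. Rpl13a was lone low in both groups, at 9.69 CPM in WT 3 and 20.96 CPM in KO 3. The summed level of the members was 25803 CPM in WT 4, above the other WT libraries and within the range of the KO libraries.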

How the results depend on the processing

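The count of 30 higher members became 17 with upper-quartile scaling, 18 with library totals and 18 with cyclic loess, and lay between 26 and 34 when single libraries were left out. The count of 4 lower members became 20, 15 and 21 with those 3 scalings, 2 with RLE, 1 with DESeq2, 2 without a low-count filter, and 1 to 4 when single libraries were left out. Over all genes, the fits with single libraries left out gave 5353 to 6251 higher and 5928 to 7014 lower. Large subunit genes that were higher fell from 17 to 11 with upper-quartile scaling and 11 with cyclic loess, and small subunit genes from 13 to 6 with upper-quartile scaling, 6 with library totals and 7 with cyclic loess. The cause was not tested. The difference of the subunit medians, large minus small, was -0.15. It was -0.12 with a CPM of 1 or more in 4 libraries, -0.20 with voom, -0.18 with pseudogenes added, and -0.21 to -0.13 when single libraries were left out. The mean large to small ratio was 0.129 lower in KO. It differed by -0.0797 without Rpl4, by -0.0479 without the 17 members higher under all scalings and by 0.0078 without the 4 small subunit genes with a difference of 1 or more, by -0.0461 without all 12 members of that size, and by -0.140 to -0.120 when single libraries were left out.

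With the replicate number as a block, 24 members were higher and 2 lower, where 5469 of 24005 genes were higher and 6049 lower. Same-numbered libraries did not deviate together (r = 0.19, -0.23, -0.13 and 0.00 for numbers 1 to 4, across genes), so the numbers were not taken as pairs. KO 1 and WT 1 also share a number in their library names, whose meaning is not given. Rplp2 was -0.028 in the fit with the block.

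The sign changed between scalings for 29 members, and 3 of these (Rpl9, Rpl10a and Rpl18) were lower under some scalings. The named members below changed sign without passing in those settings. With upper-quartile scaling the differences were Rpl10l -0.019, Rpl26 -0.20, Rpl7 -0.17, Rpl8 -0.19, Rplp1 -0.068, Rplp2 -0.21, Rps27 -0.076, Rps4x -0.20 and Rpsa -0.23. With library totals they were Rpl26 -0.15, Rpl7 -0.11, Rpl8 -0.13, Rplp1 -0.011, Rplp2 -0.15, Rps27 -0.018, Rps4x -0.14 and Rpsa -0.17. With cyclic loess they were Rpl26 -0.17, Rpl7 -0.11, Rpl8 -0.11, Rplp1 -0.016, Rplp2 -0.26, Rps27 -0.11, Rps4x -0.20 and Rpsa -0.14. With the stricter filter they were Rpl26 -0.0048, Rplp2 -0.0037 and Rpsa -0.028, and with coding genes only Rpl26 -0.0087, Rplp2 -0.0092, Rps4x -0.0026 and Rpsa -0.032. Voom gave Rplp2 -0.041 and Rpsa -0.0078, and thinning gave Rpsa -0.00081. When single libraries were left out, Rplp2 ran from -0.098 to 0.27, Rpl8 from -0.026 to 0.16, Rpsa from -0.058 to 0.10, Rpl26 from -0.032 to 0.11, Rps4x from -0.036 to 0.13, Rpl5 from -0.16 to 0.10 and Rpl4 from -0.11 to 0.0032. The Leydig marker Hsd3b1 ran from -0.75, without KO 4, to 5.15. Depth limits the 4 untested retrocopies, and shared sequence limits the counts of members with close copies.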
